A study of Mus musculus with 8 samples.

Results

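Isg15, Uba7, Ube2l6, Herc6 and Usp18 are the mouse genes for attaching the ubiquitin-like protein ISG15 to other proteins and for removing it. They were taken by symbol and make up 5 of the 29079 genes in the count table. Transcripts were counted in MC38, a mouse colon adenocarcinoma line, in 8 libraries. The WT line carried a CRISPR control and the KO line was edited with a single guide RNA (gRNA1) against Piezo2, which encodes a mechanically gated ion channel. Each line was measured without irradiation (WT_nonIR, Piezo2_KO_nonIR) and after a single X-ray dose of 30 Gy, with RNA taken 60 hours later (WT_IR, Piezo2_KO_IR). Each of the 4 groups had 2 libraries. The labels do not say whether the KO line is a single clone, nor whether replicate libraries were grown as independent cultures. The p-values therefore reflect library-to-library spread that could be purely technical.

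ISG15 is made as a precursor and joined through its C terminus to lysines of target proteins by a cascade like that of ubiquitin. Uba7 encodes the activating enzyme (E1), Ube2l6 the conjugating enzyme (E2, also called UbcH8), and Herc6 the main ligase (E3) for ISG15 in the mouse, where it does the work that HERC5 does in humans. Usp18 encodes the protease that cuts ISG15 off its targets, and the same protein binds the interferon receptor subunit IFNAR2 and restrains receptor signalling. All of them are classical interferon-stimulated genes, switched on through the transcription factor complex ISGF3, which binds interferon-stimulated response elements (ISRE).

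Total counts per library ran from 10971004 to 19887180. Piezo2 itself had between 0 and 12 reads in any library, too few to check the edit. The labels call MC38 an epithelial cell line. Of 11 epithelial markers, 8 had a row in the table, and Cdh1 (E-cadherin) stood at 38.1 to 79.3 CPM, the counts-per-million scale relative to the total of each library. The keratin gene Krt18 and the claudin genes Cldn3, Cldn4 and Cldn7 had no more than 3 reads in any library. The table holds bulk values, in which fewer cells of a type and less RNA per cell cannot be told apart.

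Promoter stretches are shown for Isg15 and Uba7 because, of the windows searched, theirs held a match to a core of interferon-responsive elements. RefSeq windows (build GRCm38.p6) of 250 bases before to 50 after the gene start were found for 4 of the 5 genes: Isg15, Uba7, Ube2l6 and Herc6. The ISRE core was searched on both strands as GAAANNGAAA, the shorter core of interferon regulatory factor sites as AANNGAAA, and the core of the gamma-activated site (GAS) as TTCNNNGAA. The ISRE core contains the shorter one, so their matches overlap. Capitals below mark matches to the ISRE or the shorter core. The Isg15 stretch covers the 150 bases before the start (chr4:156200819-156200968, minus strand), and the Uba7 stretch covers 30 bases (chr9:107975529-107975558, plus strand).
Isg15: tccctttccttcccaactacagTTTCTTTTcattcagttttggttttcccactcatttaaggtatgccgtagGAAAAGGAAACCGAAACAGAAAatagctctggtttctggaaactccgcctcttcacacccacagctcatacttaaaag
Uba7: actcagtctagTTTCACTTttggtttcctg
In Isg15, 3 overlapping ISRE cores formed a run of 22 bases from position -78 to -57, counting the base just before the start as -1. Uba7 had the shorter core, on the other strand, from -27 to -20. These positions count from the RefSeq start of Uba7 at 107975567, which lies 62 bases inside the GENCODE gene given below, so the Uba7 stretch is upstream of the RefSeq start only. For Isg15 both annotations start at the same base. The ISRE core was in 1 of the 4 windows and in 3.44 percent of all 32851 windows, and the shorter core was in 2 of the 4 and in 23.9 percent of all. No GAS core was found in the 4 windows, against 8.3 percent of all. These are matches of letters in 300-base windows and were not tested for binding.

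After 30 Gy in WT, 4 of the 5 genes were higher and 0 lower, with Ube2l6 not called. A gene was called at an edgeR quasi-likelihood adjusted p under 0.05 over the 14923 tested genes, and in this comparison 20.4 percent of those were called higher and 18.4 percent lower. In KO all 5 were higher, against 21.1 percent of tested genes called higher and 18.6 percent lower. The median log2 change of the 5 genes was 2.3 in WT and 4.68 in KO, while the median over all tested genes was 0.03 and 0.02. All 5 genes passed the filter on low counts. Usp18 in WT_nonIR, with 6 and 2 reads, lay below its minimum of 10, but the gene had more reads in the other 3 groups.

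Between the lines, fewer of the genes were called before irradiation than after it. Without irradiation 2 of the 5 genes, Isg15 and Usp18, were higher in KO and 0 lower, against 10.4 percent of tested genes called higher and 9.49 percent lower. After irradiation all 5 were higher in KO, against 13.3 percent called higher and 11.4 percent lower. The interaction subtracts the log2 response of WT to irradiation from the response of KO. It was called for 4 of the 5, all with a larger rise in KO, against 1.37 percent of tested genes called in that direction and 0.57 percent in the other. Usp18 was not called there. Ranked by log2 change among all tested genes, Usp18 and Isg15 were at 162 and 239 in WT and at 95 and 133 in KO. These comparisons share libraries, so they are not independent of each other.

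**Figure D1:**
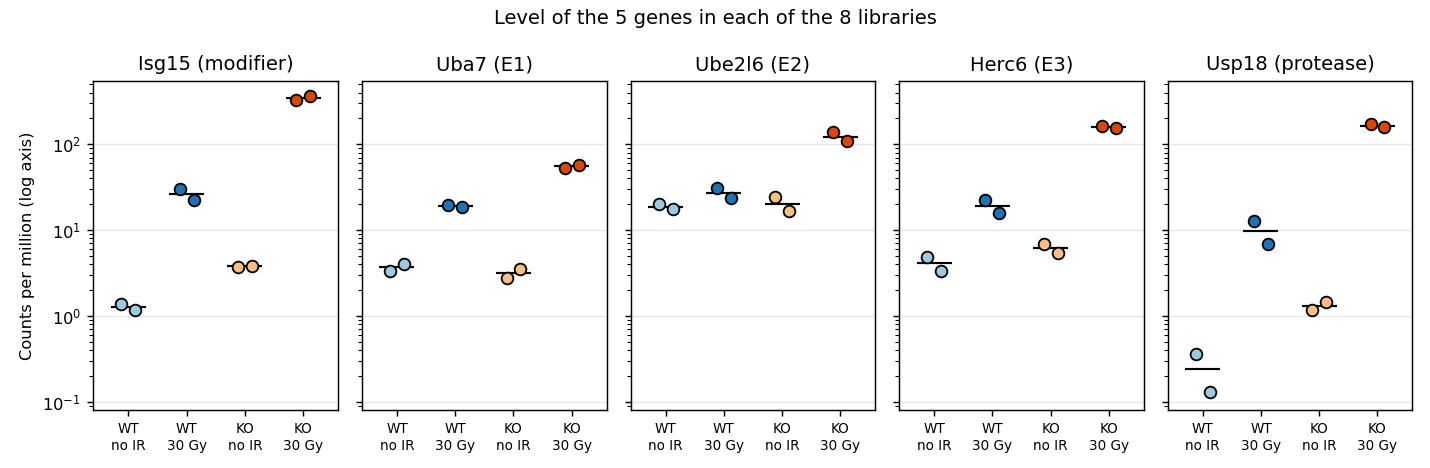
Level of each of the 5 genes in every library, in CPM on a log axis. Points are the 2 libraries of each group (replicate 1 on the left) and lines are group means. In each of the 5 genes the KO libraries after 30 Gy are the highest, and Ube2l6 is the only gene whose irradiated WT libraries overlap those of non-irradiated KO.

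Isg15, the modifier, reached the highest level of the 5 per exonic length, 460.0 ± 32.6 CPM per kilobase of annotated exon (RPKM, SD, 2 libraries) in Piezo2_KO_IR. It lies on chromosome 4 (156199424 to 156200818, mm10, ENSMUSG00000035692). It stood at 1.36 and 1.18 CPM in WT_nonIR, 30.2 and 22.7 in WT_IR, 3.74 and 3.82 in Piezo2_KO_nonIR, and 330.0 and 365.0 in Piezo2_KO_IR. No 2 groups overlapped, and the order from lowest to highest was WT_nonIR, Piezo2_KO_nonIR, WT_IR, Piezo2_KO_IR. Ranked by RPKM among 28915 genes, Isg15 went from ranks 10169 and 10648 in WT_nonIR to ranks 55 and 46 in Piezo2_KO_IR. Irradiation raised it 19.7-fold in WT (95 percent interval 14.3 to 26.9, edgeR adjusted p = 1.24e-05) and 89.3-fold in KO (68.2 to 117, adjusted p = 5.45e-07). KO exceeded WT 2.93-fold without irradiation (1.97 to 4.37, edgeR adjusted p = 0.00482) and 13.3-fold after it (10.7 to 16.6, edgeR adjusted p = 7.56e-06). The rise in KO was 4.54 times that in WT (2.77 to 7.45, edgeR adjusted p = 0.0138). That interaction lost its call without WT_nonIR replicate 1 (adjusted p = 0.142), WT_nonIR replicate 2 (0.072), Piezo2_KO_nonIR replicate 1 (0.0594) or Piezo2_KO_nonIR replicate 2 (0.0702), with the log2 value between 2.06 and 2.28 in these fits. Over all 12 alternatives the adjusted p ran from 1.96e-10 to 0.142.

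Uba7, which activates ISG15 with ATP and hands it to the E2, rose in both lines from a shared starting level. The gene lies on chromosome 9 (107975505 to 107984060, plus strand, ENSMUSG00000032596). Its CPM was 3.38 and 4.01 in WT_nonIR, 19.5 and 18.5 in WT_IR, 2.73 and 3.52 in Piezo2_KO_nonIR, and 53.5 and 57.7 in Piezo2_KO_IR. The non-irradiated groups overlapped each other and lay below both irradiated groups, which did not overlap. The rise was 4.93-fold in WT (3.89 to 6.25, edgeR adjusted p = 4.14e-05) and 17.0-fold in KO (13.3 to 21.7, adjusted p = 2.01e-06). Without irradiation the KO to WT ratio was 0.86 (0.656 to 1.13, edgeR adjusted p = 0.525), and after it 2.96 (2.41 to 3.64, adjusted p = 0.000161). The interaction was 1.78 ± 0.21 on the log2 scale (SE, 2 libraries per group, edgeR adjusted p = 0.00608) and stayed called without any single library.

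Ube2l6, the E2 that carries ISG15 to the ligase, was the most abundant of the 5 per exonic length in both non-irradiated groups (9.37 ± 0.869 RPKM in WT and 10.2 ± 2.66 in KO, SD, 2 libraries) and had the smallest log2 rises. It lies on chromosome 2 (84798828 to 84810335, plus strand, ENSMUSG00000027078). Its CPM was 19.9 and 17.5 in WT_nonIR, 31.0 and 23.6 in WT_IR, 24.2 and 16.6 in Piezo2_KO_nonIR, and 138.0 and 108.0 in Piezo2_KO_IR. The irradiated WT libraries lay above the non-irradiated WT ones but overlapped those of non-irradiated KO, and the irradiated KO libraries stood apart from all others. The WT ratio was 1.39 (0.992 to 1.96, edgeR adjusted p = 0.11). With the replicate number as a block this WT change was called (adjusted p = 1.68e-05), and likewise without the filter on low counts (adjusted p = 0.00104), at the same log2 value of 0.48. Its adjusted p ran from 1.68e-05 to 0.453 over 13 alternatives, and within the replicate pairs the log2 change was 0.64 and 0.43. In KO the rise was 5.97-fold (4.24 to 8.41, edgeR adjusted p = 9.28e-05). After irradiation KO exceeded WT 4.57-fold (3.27 to 6.38, edgeR adjusted p = 0.000314), and without it the ratio was 1.07 (0.754 to 1.51, adjusted p = 0.825). The log2 value of the last ratio was -0.01 without WT_nonIR replicate 2 and -0.16 without Piezo2_KO_nonIR replicate 1. The interaction was 2.1 ± 0.30 (SE, edgeR adjusted p = 0.0138), and it lost its call without WT_nonIR replicate 1 (adjusted p = 0.0672), WT_IR replicate 2 (0.0623), Piezo2_KO_nonIR replicate 2 (0.0505) or Piezo2_KO_IR replicate 1 (0.0505). Over 12 alternatives it ran from 1.51e-29 to 0.0672.

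Herc6, the ligase that places ISG15 on its targets, had an interaction of 2.56 ± 0.31 (log2, SE), the highest value of the 5, although the 95 percent intervals of all 5 overlapped. The gene lies on chromosome 6 (57581000 to 57664632, plus strand, ENSMUSG00000029798). Its CPM was 4.92 and 3.35 in WT_nonIR, 22.2 and 15.9 in WT_IR, 6.84 and 5.48 in Piezo2_KO_nonIR, and 164.0 and 155.0 in Piezo2_KO_IR. The groups did not overlap, although the gap between the non-irradiated lines was narrow. Irradiation raised it 4.37-fold in WT (3.06 to 6.24, edgeR adjusted p = 0.000334) and 25.7-fold in KO (18.2 to 36.3, adjusted p = 4.82e-06). The KO to WT ratio was 1.44 without irradiation (0.974 to 2.14, edgeR adjusted p = 0.174), which was called with the replicate block (adjusted p = 0.0113) and without the low-count filter (0.0178). That p ran from 0.0113 to 0.545 over 13 alternatives. After irradiation it was 8.5 (6.26 to 11.6, edgeR adjusted p = 4.32e-05). The rise in KO was 5.89 times that in WT (3.58 to 9.68, edgeR adjusted p = 0.00671) and stayed called without any single library.

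Usp18, the ISG15 protease and receptor inhibitor, had the largest log2 rises of the 5 and the lowest level in WT_nonIR per exonic length (0.0873 ± 0.0569 RPKM, SD, 2 libraries). It lies on chromosome 6 (121245906 to 121270917, plus strand, ENSMUSG00000030107). It had 6 and 2 reads in WT_nonIR (0.356 and 0.131 CPM), 171 and 118 in WT_IR (12.6 and 6.85 CPM), 13 and 29 in Piezo2_KO_nonIR (1.18 and 1.46 CPM), and 2580 and 2750 in Piezo2_KO_IR (171.0 and 159.0 CPM). No 2 groups overlapped, in the same order as for Isg15. Irradiation raised it 35.9-fold in WT (16.9 to 76.4, edgeR adjusted p = 0.000181), where the ratio of 289 to 8 summed reads has a counting interval of 18.9 to 88.1, and 118-fold in KO (70.7 to 197, adjusted p = 5.01e-06). Without WT_nonIR replicate 1 the WT log2 change was 6.05, against 5.17 with all libraries, and 4.65 without WT_nonIR replicate 2. After irradiation KO exceeded WT 17.3-fold (11.5 to 26.0, edgeR adjusted p = 4.1e-05). Without irradiation the ratio was 5.27 (1.82 to 15.3, edgeR adjusted p = 0.0404). That call rests on 42 reads against 8, and the counting interval of the fold of summed reads, 5.46, was 2.53 to 13.5. It was lost when any one of the libraries of WT_nonIR, Piezo2_KO_nonIR or Piezo2_KO_IR was left out (adjusted p = 0.0518 to 0.198), and the log2 value was 3.29 without WT_nonIR replicate 1 and 1.89 without WT_nonIR replicate 2, against 2.4 with all. With only the compared groups in the fit it was also lost (0.0567), and over 13 alternatives the adjusted p ran from 7.08e-06 to 0.198. The interaction was 1.72 ± 0.91 (SE, edgeR adjusted p = 0.514), with a 95 percent interval of the ratio from 0.761 to 14.2, and was 0.82 without WT_nonIR replicate 1 and 1.3 to 2.22 without any other single library.

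The replicate numbers gave the same direction for the interaction in all 5 genes. The values within replicates use the same libraries as the interaction fit and are not a separate test of it. Taken within replicate 1 and within replicate 2, the log2 difference between the rises was 2.0 and 2.32 for Isg15, 1.76 and 1.83 for Uba7, and 1.88 and 2.27 for Ube2l6. It was 2.41 and 2.58 for Herc6 and 2.03 and 1.06 for Usp18. For Usp18 the difference between the lines without irradiation was 1.74 in replicate 1 and 3.47 in replicate 2, the latter from 2 reads in WT_nonIR.

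**Figure D2:**
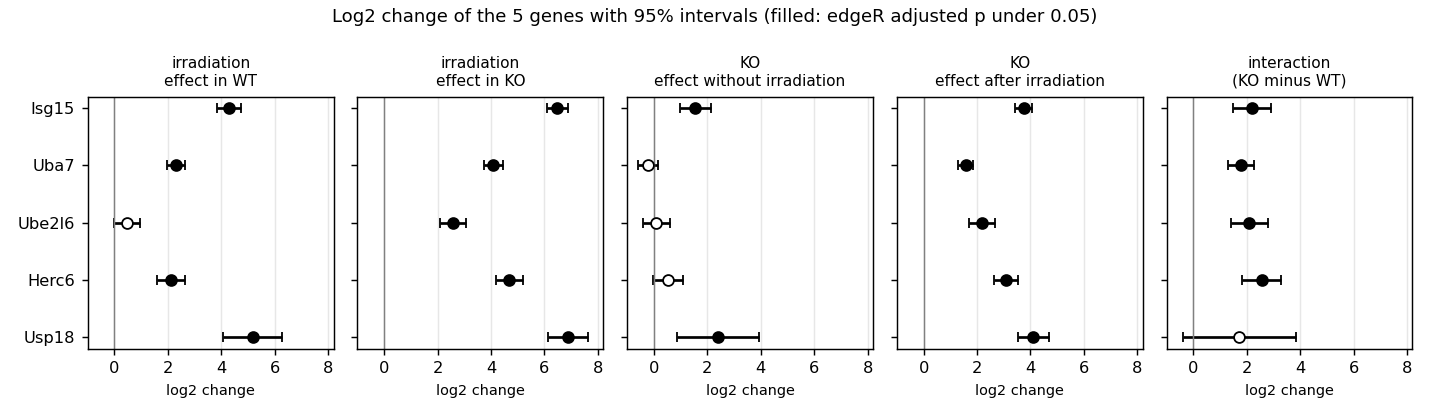
Log2 change of the 5 genes in each comparison, with 95 percent intervals from the edgeR fit of all 8 libraries. Filled points had an adjusted p under 0.05. Usp18 and Isg15 lie farthest to the right in both irradiation panels, and the wide interval of Usp18 in the interaction panel goes with its 8 reads in WT_nonIR.

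The order of the 5 genes by size of the irradiation effect was Usp18, Isg15, Uba7, Herc6, Ube2l6 in WT and Usp18, Isg15, Herc6, Uba7, Ube2l6 in KO. In both lines the 95 percent interval of Isg15 (3.84 to 4.75 in WT, 6.09 to 6.87 in KO, log2) lay above those of all 3 conjugating enzymes. In WT the intervals of Uba7 (1.96 to 2.64) and Herc6 (1.61 to 2.64) overlapped, and so did those of Usp18 (4.08 to 6.26) and Isg15. In KO the highest enzyme interval was that of Herc6 (4.19 to 5.18), and the lowest was that of Ube2l6 (2.08 to 3.07). The interval of Herc6 in KO overlapped that of Uba7 (3.73 to 4.44), and that of Usp18 (6.14 to 7.62) overlapped that of Isg15. These are separate intervals for each gene and not tests of the differences between genes.

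Per exonic length, the make-up of the 5 transcripts turned from mostly E2 to mostly modifier. Without irradiation Ube2l6 held 77.1 and 77.3 percent of their summed RPKM in WT and 65.0 and 55.5 percent in KO. After 30 Gy Isg15 held 61.2 and 61.5 percent in WT and 73.7 and 78.0 percent in KO, up from 13.9 and 13.8 percent in WT and 26.6 and 33.6 percent in KO. Isg15 was 1.28 times the geometric mean of the 3 enzymes in WT_nonIR (log2 0.36 ± 0.03, SD, 2 libraries), 8.11 times in WT_IR (3.02 ± 0.07), 3.44 times in Piezo2_KO_nonIR (1.78 ± 0.14) and 22.3 times in Piezo2_KO_IR (4.48 ± 0.18). With the length of the longest transcript in place of all exons the ratio in WT_nonIR fell below 1, to 0.771. The ratio of Isg15 to Usp18 moved the other way, from 21.7 in WT_nonIR (log2 4.44 ± 0.87) and 10.6 in Piezo2_KO_nonIR (3.41 ± 0.19) to 10.4 in WT_IR (3.38 ± 0.33) and 7.77 in Piezo2_KO_IR (2.96 ± 0.18). In that ratio WT_nonIR rests on 8 Usp18 reads and has the widest spread of the 4 groups. With the longest transcript as length its ratio was 13.8. Against the 3 enzymes, Usp18 went from a ratio of 0.0592 in WT_nonIR to 0.781 in WT_IR, and from 0.324 in Piezo2_KO_nonIR to 2.87 in Piezo2_KO_IR.

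**Figure D3:**
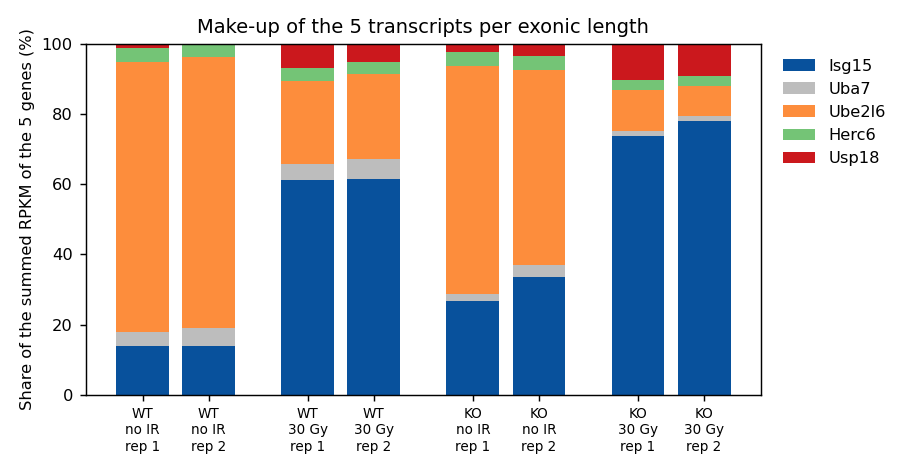
Share of each gene in the summed RPKM of the 5 genes, in percent, for each library, with lengths taken as the union of annotated exons. Bars of 1 group sit side by side. Ube2l6 makes up 55.5 to 77.3 percent in the non-irradiated libraries, and Isg15 makes up 61.2 to 78.0 percent in the irradiated ones.

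Each of the 5 genes has relatives that serve ubiquitin or other modifiers, and the counts below stand beside 20.4 percent of all tested genes called higher and 18.4 percent lower in WT, and 21.1 and 18.6 percent in KO. With the replicate block the shares were 30.6 and 29.9 percent in WT and 30.6 and 29.6 percent in KO. Among 18 tested modifiers, which include ubiquitin, SUMO and NEDD8 genes, 7 were higher in WT and 0 lower, with a median log2 change of 0.08. In KO 7 were higher and 1 lower, with a median of 0.28, and with the replicate block 12 and 2. Of 9 other E1 enzymes 1 was higher and 5 lower in WT and 1 and 4 in KO (2 and 5 in both with the block), with log2 changes from -0.83 to 0.86 over both. The ubiquitin E1 Uba1 was at -0.29 in WT (called) and -0.16 in KO (called only with the block), beside 2.3 and 4.08 for Uba7. Of 30 tested genes with E2 symbols, 3 were higher and 8 lower in WT and 3 and 6 in KO, and the highest value was 0.82, of Ube2h in KO. With the block these counts became 5 and 14 in WT and 6 and 16 in KO. Ube2l6 was thus above all 30 in KO, whereas in WT 3 of them were above it. Its closest relative by name, Ube2l3, which serves ubiquitin, was at 0.01 ± 0.23 in WT and 0.03 ± 0.23 in KO (SE, not called). Of the other HERC genes, Herc1, Herc2 and Herc4 were tested and had log2 changes from -0.39 to 0.07, with Herc4 lower in both lines. Herc3 had a mean of at most 0.0577 CPM in any group.

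The 45 other tested genes with USP symbols were taken by name and include Usp6nl. Beside the shares of all tested genes above, 10 of the 45 were higher and 15 lower in WT and 7 and 16 in KO (11 and 20 in KO with the replicate block). None was above Usp18 in any of the 5 comparisons. In the interaction test 1 of the 45 was called, against 1.37 percent of all tested genes (3 higher and 2 lower with the block, against 8.15 and 8.55 percent). It was Usp25, which encodes a deubiquitinase. It went from 62.9 ± 3.93 to 82.5 ± 3.49 CPM in WT and from 56.0 ± 2.09 to 135.0 ± 6.70 in KO (SD, 2 libraries each), with an interaction of 0.9 ± 0.11 (SE, edgeR adjusted p = 0.00804). Ubd, which encodes the ubiquitin-like modifier FAT10, was the only modifier above Isg15 in WT, with a log2 change of 6.69 ± 0.58 against 4.3 ± 0.20. It had 1 and 1 reads in WT_nonIR, 114 and 115 in WT_IR, 0 and 2 in Piezo2_KO_nonIR, and 38 and 30 in Piezo2_KO_IR. From its summed reads the WT ratio was 119, with a counting interval of 32.7 to 992. After irradiation Ubd was lower in KO than in WT (-1.81 ± 0.38, edgeR adjusted p = 0.0117), where Isg15 was higher by 3.74 ± 0.14.

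**Figure D4:**
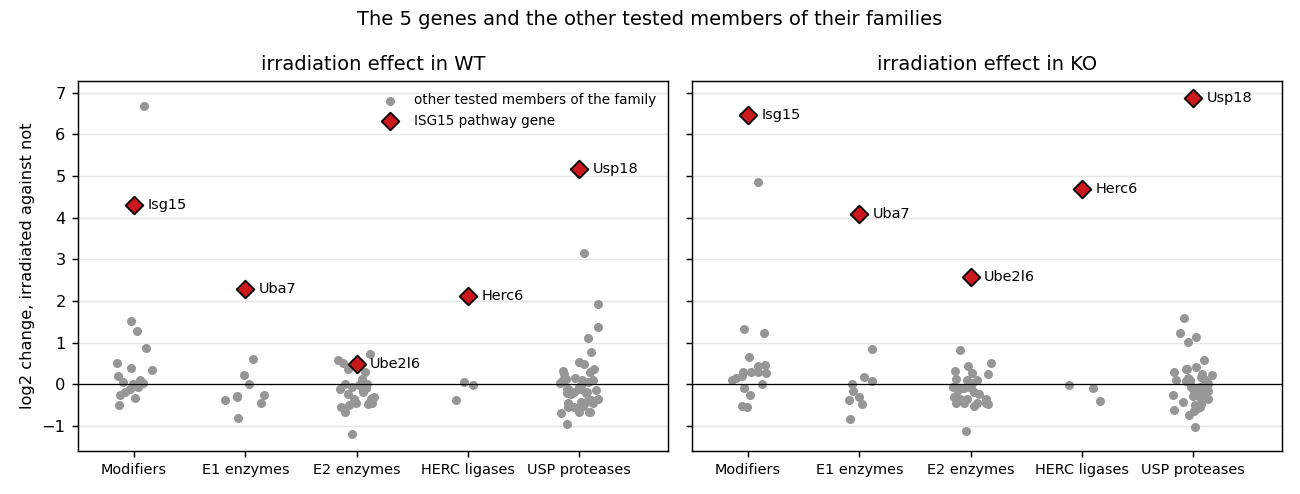
Log2 change after 30 Gy of the 5 genes (red diamonds) and of the other tested members of their families (grey points, spread sideways for legibility), in WT on the left and KO on the right. The grey point above Isg15 in WT is Ubd. Ube2l6 sits among the other E2 genes in WT, at 0.48, and above them in KO, at 2.58.

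Genes that act with the ISG15 system were followed through fixed lists. Of 12 tested partners, 3 were higher and 5 lower in each line, where 20.4 and 18.4 percent of all tested genes were called in WT and 21.1 and 18.6 percent in KO. The 3 were Trim25, Usp2 and Itgb2. The E3 ligase Trim25, which can also act on ISG15 and is itself ISGylated, rose from 98.8 ± 1.55 to 264.0 ± 11.4 CPM in WT and from 105.0 ± 2.60 to 615.0 ± 19.0 in KO (SD, 2 libraries each). Its interaction was 1.16 ± 0.10 (SE, edgeR adjusted p = 0.002), the only one of the 12 called (2 with the replicate block). Over all tested genes the interaction was called higher in 1.37 percent and lower in 0.57 percent, or 8.15 and 8.55 percent with the block. Usp2, a deubiquitinase that can react with ISG15 probes, rose by 1.39 ± 0.12 and 1.02 ± 0.12. Arih1, an E3 ligase that has been reported to act on ISG15, was at -0.12 in WT and -0.26 in KO, the latter called, and with the replicate block both. Skp2, the F-box protein that marks Usp18 for degradation, fell by 0.67 in WT and by 0.59 in KO. The general deubiquitinases Usp5 and Usp14, which can also react with ISG15 probes, fell by 0.66 and 0.44 in WT and by 0.59 and 0.43 in KO. Itgal, the integrin chain reported to receive free ISG15, had a mean of at most 0.401 CPM in any group and was not tested. Its partner chain Itgb2 rose by 2.56 ± 0.61 in WT and 2.91 ± 0.80 in KO, from 13 and 3 summed reads to 79 and 27.

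Stat2, Irf9 and Tyk2, which carry the interferon signal, rose in both lines, whereas the kinase gene Jak1 and the receptor chains were not called after irradiation without the replicate block. Stat2, the ISGF3 subunit through which Usp18 reaches the receptor, rose by 2.16 ± 0.08 in WT and 3.68 ± 0.09 in KO (log2, SE), and Irf9, its DNA-binding subunit, by 1.91 ± 0.12 and 2.41 ± 0.12. Tyk2, a receptor-bound kinase gene, rose by 0.96 ± 0.08 and 0.73 ± 0.08. Stat2 had an interaction of 1.53 ± 0.11 (adjusted p = 0.00117 by edgeR) and Irf9 one of 0.5 ± 0.16 that was not called (0.246), but was with the block (0.0042). Stat2 and Irf9 were higher in KO without irradiation, by 0.67 ± 0.08 and 0.82 ± 0.12, as Isg15 and Usp18 were. Ifnar2, the receptor chain that Usp18 binds, was at 0.04 in WT and 0.28 in KO, and Ifnar1 at 0.12 and -0.13, none of them called. With the replicate block Ifnar1 in both lines (adjusted p = 0.0414 and 0.0448 by edgeR) and Ifnar2 in KO (0.0443) were called, as was Jak1, at 0.22 in WT and 0.23 in KO. Ifnar1 was lower in KO than in WT both without irradiation (-0.29 ± 0.07) and after it (-0.54 ± 0.07). The level of Tyk2 was also lower in KO, at 28.5 ± 0.151 CPM against 35.2 ± 0.608 in WT without irradiation (SD, 2 libraries each). After irradiation it was 48.3 ± 0.507 against 71.4 ± 1.6 CPM. Of 6 tested interferon regulatory factor genes 5 were higher in WT and 4 in KO, and 0 lower, against 20.4 and 21.1 percent of all tested genes called higher. Irf7, which amplifies interferon production, rose by 4.04 ± 0.28 and 5.36 ± 0.23 and was higher in KO without irradiation by 2.27 ± 0.31. Its interaction of 1.32 ± 0.40 was not called (edgeR adjusted p = 0.204), but was with the block (0.000233). Those of Irf5, at 2.27 ± 0.31, and Irf1, at 1.15 ± 0.14, were called (adjusted p = 0.012 and 0.00661 by edgeR).

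Markers of other cell types were read beside these results. The summed level of 12 macrophage markers was 9.26 to 9.61 CPM in WT_nonIR, 46.5 to 46.7 in WT_IR, 17.8 to 19.2 in Piezo2_KO_nonIR and 73.3 to 83.1 in Piezo2_KO_IR. It thus followed the order of Isg15, as did the plasmacytoid dendritic cell and fibroblast sums given below. Most of the macrophage sum was Cd68 and Cd14, at up to 62.7 and 17.6 CPM. Adgre1, C1qa, C1qb, Itgam and Tyrobp had no more than 2 reads in any library. Ptprc went from 2 to 40 summed reads in WT and from 0 to 13 in KO, Lyz2 from 1 to 18 and from 2 to 26, Ctss from 1 to 4 and from 0 to 27, and Csf1r from 2 to 1 and from 3 to 16. Of 12 T and NK cell markers 9 were in the table, at 0 to 0.929 CPM in sum. The 4 plasmacytoid dendritic cell markers in the table summed to 81.8 to 85.9 CPM in WT_nonIR, 151 to 176 in WT_IR, 110 to 130 in Piezo2_KO_nonIR and 528 to 581 in Piezo2_KO_IR. That sum is mostly Tcf4 and the interferon-induced Bst2, and Irf8 had at most 11 reads. The 11 fibroblast markers summed to 1120 to 1240 CPM in WT_nonIR, 1670 to 1850 in WT_IR, 1550 to 1650 in Piezo2_KO_nonIR and 2630 to 2950 in Piezo2_KO_IR, mostly Col1a2 and Col3a1, with Lum at no more than 1 read. The 8 endothelial markers summed to 3.02 to 3.08 CPM in WT_nonIR, 14.1 to 19.2 in WT_IR, 8.1 to 9.11 in Piezo2_KO_nonIR and 13.6 to 15.8 in Piezo2_KO_IR, with Vwf going from 1.17 to 10.6 CPM in WT and Kdr, Emcn and Cldn5 at no more than 5 reads in any library. The part of these genes in the ISG15 results was not tested.

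The genes whose profiles over the 8 libraries lay closest to each of the 5 were taken by the root mean square difference of centred log2 CPM, among the 11049 other genes that reached 5 CPM as the mean of some group. For Isg15 they were Igtp (0.25), Gbp7 (0.29), Pax5 (0.31), Irgm2 (0.38) and Ifi205 (0.39), and Usp18 itself lay at 0.4 from Isg15. For Usp18 they were Cmpk2 (0.41), Gm4951 (0.44), Gbp7 (0.46), Zbp1 (0.51) and Cxcl10 (0.52). These distances used log2 CPM with a prior count of 2, which damps differences at few reads. Pax5 and Gm4951 both had 0 reads in WT_nonIR. Their interactions in the edgeR fit were -1.85 and -0.52, neither called, against 2.18 for Isg15 and 1.72 for Usp18. Uba7 lay closest to Gm20559 (0.2), Ddx58 (0.26), Parp9 (0.27), H2-T23 (0.28) and Dtx3l (0.29). Herc6 lay closest to Trim30d (0.15), Sp110 (0.22), Ifih1 (0.24), Sp100 (0.31) and Ifi47 (0.31). Ube2l6 lay closest to Parp11 (0.1), Mndal (0.16), Gm17435 (0.21), Tent5a (0.22) and Nt5c3 (0.23). The nearest to Ube2l6, Parp11, likewise differed little between the non-irradiated lines and WT_IR, at 19.2, 19.9 and 26.3 CPM, and stood at 115 CPM in Piezo2_KO_IR. Among the 5 genes themselves the distances ran from 0.4, between Isg15 and Usp18, to 2.35, between Ube2l6 and Usp18. Several of these genes, such as Ddx58 (RIG-I), Ifih1 (MDA5) and Cxcl10, are interferon-stimulated themselves.

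Genes next to the 5 were examined in the same fit. Of the 30 nearest tested protein-coding genes, 3 on each side of each gene, 11 were higher and 3 lower in WT and 14 and 4 in KO. That is beside 20.4 and 21.1 percent of all tested genes called higher. With the replicate block 18 were higher in WT and 17 in KO, against 30.6 percent of all tested genes in both. The interaction was called for 4 of the 30, all positive, against 1.37 percent of all tested genes. With the block 8 were higher and 3 lower, against 8.15 and 8.55 percent. Of the 6 genes next to Isg15, 5 were higher in KO and 3 in WT. Agrn, which encodes the matrix protein agrin and begins 1.94 kb from Isg15, went from 45.0 ± 4.13 to 58.4 ± 5.48 CPM in WT and from 32.9 ± 4.92 to 87.2 ± 0.668 in KO (SD, 2 libraries each). It was called in KO (log2 1.36 ± 0.13, edgeR adjusted p = 0.000182) and in the interaction (1.04 ± 0.18, adjusted p = 0.0328), but in WT (0.32 ± 0.13, adjusted p = 0.0817) only with the replicate block (0.000207). AW011738, 2.49 kb away, had the largest rise of the 6 in KO (3.21 ± 0.66, edgeR adjusted p = 0.00674), from 38 to 372 summed reads. In WT it was not called (0.38 ± 0.68). Its interaction of 2.83 ± 0.94 was not called (edgeR adjusted p = 0.25), but was with the block (8.32e-05). Perm1, 15.1 kb away, rose in both lines (0.99 ± 0.12 and 1.87 ± 0.12) and was called in the interaction (0.89 ± 0.17, edgeR adjusted p = 0.0453). Near Ube2l6 2 of 6 neighbours were higher in KO, and near Uba7 2 of 6. Near Herc6, Nt5c3 and Ppm1k rose in KO by 2.06 and 2.03, at 657 and 45.5 kb, and Nt5c3 had an interaction of 1.62. Of the 6 genes near Herc6, 3 were higher in KO than in WT without irradiation and 5 after it, with 0 lower. Over all 30 neighbours, 7 were higher and 2 lower in KO than in WT without irradiation, against 10.4 and 9.49 percent of all tested genes. After irradiation 13 were higher and 0 lower, against 13.3 and 11.4 percent. Near Usp18 the 3 neighbours at higher coordinates lay 1040 kb or more away, and the farthest, Apobec1 at 1310 kb, had an interaction of 2.23.

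**Figure D5:**
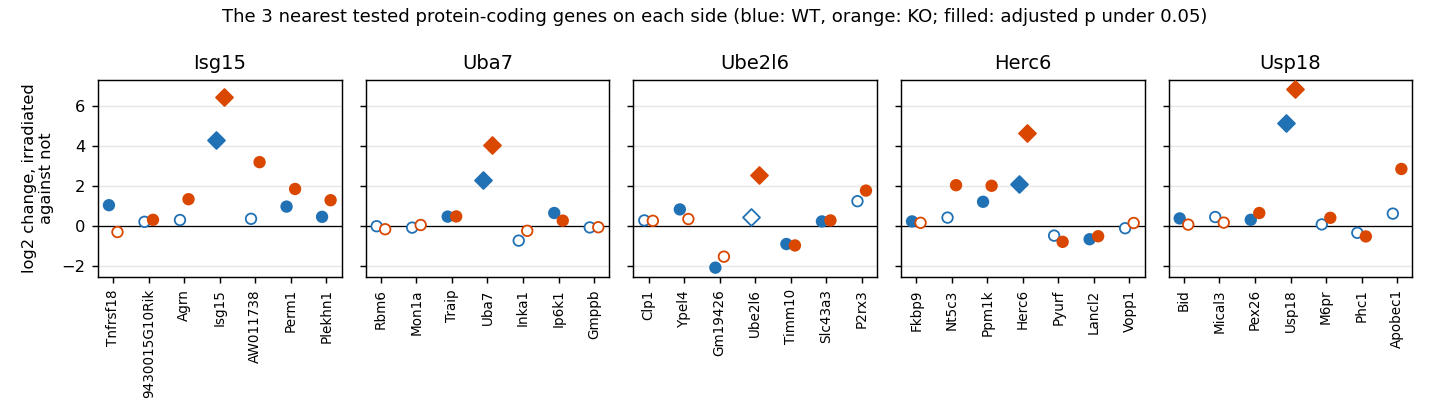
Log2 change after 30 Gy of each of the 5 genes (diamonds) and of the 3 nearest tested protein-coding genes on either side (circles), in order along the chromosome and not to scale. Blue is WT, orange is KO, and filled symbols had an edgeR adjusted p under 0.05. Around Isg15, 5 of the 6 orange circles are filled, and around Uba7 2 of 6 are. Around Ube2l6 the filled orange circles are 2 higher and 1 lower.

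Some reads of these genes can also match other annotated transcripts. Of the 50-base windows of the longest transcript, 1125 of 4718 in Herc6 recurred in Gm45193, a transcript on the same strand that has no row in the table. For Uba7 149 of 3571 recurred in Gm20661 (0 to 9 reads) and for Usp18 77 of 1722 in Gm44148, on the opposite strand (0 to 5 reads). For Isg15 28 of 707 and for Ube2l6 170 of 1511 windows recurred in other genes. How strand and multiply matching reads were handled in counting was not stated, so the share of such reads kept for each gene is unknown.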

How the data were processed

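The authors deposited raw, unnormalized read counts per Ensembl gene for 8 libraries. The submitters' processing notes name HISAT2, HISAT, HTSeq, DESeq2 and mm10, without versions, annotation release, strand setting or filters. Symbols and positions came from GENCODE M21 (28915 gene IDs matched, 164 did not). Counts were fitted in R 4.3.3 with edgeR 4.0.16: filterByExpr (minimum count 10, minimum total 15) kept 14923 genes, TMM factors ran from 0.975 to 1.02, and 1 fit with a coefficient per group left 4 residual degrees of freedom. Quasi-likelihood F tests were two-sided with Benjamini-Hochberg adjustment over all tested genes; SE and 95 percent intervals derive from F. RPKM used the union of exons. Counting intervals are exact (Clopper-Pearson) and, like the floor of 3 counts (0.151 to 0.273 CPM), cover counting error only. The procedure was tested on simulated independent counts in which only WT_IR was changed. These held no deviations shared by replicate number, and the interaction was not examined in them.

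Differences between replicates 1 and 2 correlated across genes between groups at 0.564 to 0.611 in all 6 pairs of groups, so replicate numbers were taken to pair libraries. The main fit did not use this pairing, which entered only the replicate block and the values within replicates. The members, lists and naming rule (all 5 genes, fixed anchors, the largest called changes of a list, the 5 closest profiles) were chosen with earlier results of these data known. Itgal, Gabarapl2 and the genomic neighbours named were chosen after their values were seen. Alternatives were DESeq2 1.42.0, RLE scaling, no filter, fits of the compared groups, the replicate block, leaving out each library, and other lengths or scalings of levels. The planned comparison of protein sequences was not made, and values of 1 listed gene are not reported here.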

Additional observations from a re-analysis of the deposited data

Results flagged for a closer look

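The irradiation effect was called different between the lines, by the interaction test, in 4 of the 5 genes. Over all tested genes 1.37 percent were called in that direction and 0.57 percent in the other. The log2 change in KO minus that in WT was 2.18 for Isg15, 1.78 for Uba7, 2.1 for Ube2l6 and 2.56 for Herc6 (edgeR adjusted p = 0.0138, 0.00608, 0.0138 and 0.00671). The sign was the same within replicate 1 and within replicate 2 in all 4, but these are parts of the same contrast and no separate support. The calls of Isg15 and Ube2l6 depended on single libraries, as given above. With a library left out their log2 values ran from 1.96 to 2.4 and from 1.85 to 2.35. With 2 libraries per group, no group was large enough to look for single outlying libraries.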

How the results depend on the processing

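Of 320 values for the log2 changes of the 5 genes under alternatives, 299 kept direction and side of the threshold, 15 lost the call, 4 gained it and 2 reversed. The gained calls were Ube2l6 after irradiation in WT and Herc6 in KO against WT without irradiation. Each was gained with the replicate block and without the low-count filter, so all 5 members were called for irradiation in WT under these settings. The reversals were Ube2l6 in KO against WT without irradiation, at -0.01 without WT_nonIR replicate 2 and -0.16 without Piezo2_KO_nonIR replicate 1, in a range of -0.16 to 0.35. In that comparison the 2 members called fell to 1 with only the compared groups in the fit, and were 1 to 2 with a library left out. In the interaction the 4 members called were 2 to 4 with a library left out.

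Over all genes, the replicate block moved the genes called higher and lower to 4569 and 4465 for irradiation in WT. In KO it moved them to 4569 and 4416. It moved those called higher and lower to 3197 and 3502 for KO without irradiation, to 3761 and 3755 after it, and to 1216 and 1276 in the interaction. Without the filter on low counts the interaction had 359 and 219. The compared groups alone gave 831 lower for KO without irradiation. With a library left out, irradiation had 2034 to 3014 higher and 1812 to 2754 lower in WT, and 2072 to 3104 and 1832 to 2883 in KO. KO without irradiation had 788 to 1409 and 676 to 1139, after it 1100 to 1887 and 792 to 1592, and the interaction 99 to 124 and 18 to 31.

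With the longest transcript as length the log2 ratio of Isg15 to Usp18 was 3.78 in WT_nonIR, 2.72 in WT_IR, 2.75 in Piezo2_KO_nonIR and 2.3 in Piezo2_KO_IR. That of Isg15 to the 3 enzymes was -0.38 in WT_nonIR, 2.28 in WT_IR, 1.05 in Piezo2_KO_nonIR and 3.74 in Piezo2_KO_IR. Each cause was not tested. The block changed the calls of Ube2l6 in WT and Herc6 in KO against WT without irradiation, and no other call of the 5 genes. Usp18 in WT_nonIR rests on 8 reads.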

Other observations

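Of the 5 autophagy modifiers among the 18 modifiers, picked out after their values were seen, 4 were called higher in both lines. They are joined to lipid or to other autophagy proteins by a ubiquitin-like cascade. Map1lc3b (LC3B) had log2 changes of 1.53 in WT and 1.23 in KO, Gabarapl1 1.28 and 1.34, Gabarap 0.87 and 0.44 and Atg12 0.52 and 0.65, each called in both lines by edgeR, where 20.4 percent of all tested genes were called higher in WT and 21.1 percent in KO. Atg7, the E1 of that cascade, rose by 0.62 and 0.86. Gabarapl2 was at 0.2 and 0.29 and was called only with the replicate block. In the interaction test 0 of the 18 modifiers and 0 of the 9 other E1 enzymes were called by edgeR, and 5 and 0 with the replicate block, against 1.37 percent of all tested genes higher and 0.57 percent lower, or 8.15 and 8.55 percent with the block.

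Of 18 genes whose proteins have been reported as ISG15 targets, 7 were higher and 2 lower in WT and 6 and 4 in KO, beside 20.4 and 18.4 percent of all tested genes in WT and 21.1 and 18.6 percent in KO. With the replicate block 9 were higher and 6 lower in WT and 8 and 7 in KO. The highest were the antiviral genes Ifit1 (6.04 in WT, 6.8 in KO) and Mx1 (5.66 and 8.04). The interaction was called for Ddx58 (1.21) and Eif2ak2 (1.67), among others, both of them interferon-stimulated. There 3 of the 18 were called higher and 0 lower, against 1.37 and 0.57 percent of all tested genes. With the block 5 were higher and 4 lower, against 8.15 and 8.55 percent. The cyclin gene Ccnd1 fell by 1.27 in WT and by 1.83 in KO, and the median of the 18 was 0.08 and 0.02.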
